A study of Homo sapiens with 24 samples.

Results

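Prostaglandin synthesis genes and annexins were followed through 11 hours of glucocorticoid (GC) exposure in A549 cells, a long-used human line that came from an adenocarcinoma of the lung. The 10 genes were taken by name, by a rule that used no measured value, although earlier results of these data were known. They are the phospholipase PLA2G4A, the cyclooxygenases PTGS1 and PTGS2, the prostaglandin E synthases PTGES and PTGES2, the dehydrogenase HPGD, the receptor PTGER4, and the annexin group ANXA1, ANXA2 and S100A10. These are 10 of 33126 genes in the deposited table, and the counts of all transcript rows of a gene were added up. All 10 passed the filter on low counts.

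Cells received 100 nM dexamethasone (dex), a synthetic GC dissolved in ethanol, or the same volume of ethanol alone (EtOH, 0.02% of the medium by volume). RNA with poly-A tails was sequenced at 6 time points from 1 to 11 h, every other hour, with 2 libraries labelled as biological replicates for each treatment and time point, 24 in all. By their labels the groups differ in dex and time only, and every EtOH group carries the vehicle. The label text on treatment gives 1 h for every library, whereas the duration field runs from 1 to 11 h and was used here; the published methods state triplicates, whereas 2 replicates per group were analysed here.

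Prostaglandins begin with arachidonic acid, which phospholipase A2 enzymes release from membranes. The cyclooxygenases convert it to prostaglandin H2, terminal synthases turn that into individual prostaglandins such as prostaglandin E2, receptors on the cell surface read the product, and 15-hydroxyprostaglandin dehydrogenase inactivates it. Annexins are proteins that bind membrane phospholipids in the presence of calcium, and annexin A1, once called lipocortin, is known as a mediator of the anti-inflammatory action of GCs.

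Libraries held 6708864 to 13748598 counts with dex and 7813353 to 13619043 with EtOH. The share of mitochondrial transcripts was 4.13% to 6.32% with dex and 3.30% to 5.63% with EtOH. Textbook GC targets followed the labels. TSC22D3, which encodes the GC-induced leucine zipper GILZ, stood at 80.1 CPM (counts scaled by library size and the trimmed mean of M-values, TMM) with dex and 8.39 CPM with EtOH at 1 h. FKBP5, a co-chaperone of the GC receptor, stood at 219.5 CPM against 21.0 CPM at 3 h. TSC22D3 rose at all 6 time points and FKBP5 at 5.

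The labelled cell type was checked against marker genes. All 6 epithelial markers were detected, with a median summed level of 11640 TPM (counts per transcript length, scaled to a fixed sum) in dex libraries and 6646 TPM in EtOH libraries, and KRT8 was the most abundant. At 5 h, 4 of them rose with dex (11.4% of all tested rows) and 2 fell (11.7%), and KRT8 went from 2051 to 5078 CPM. Of 5 leukocyte markers 2 were tested, their summed median was 7.84 TPM with dex and 9.34 TPM with EtOH, mostly from CD68, and the T cell gene CD3E had no count. The endothelial sum was 0.347 TPM against 0.356 TPM. The fibroblast sum was 10.5 TPM against 14.2 TPM, most of it COL1A1, which rose at 3 h (log2 fold change 0.57 ± 0.17, SE) and fell at 5, 7 and 9 h. The part of these marker shifts in the results for prostaglandin genes was not tested. In such bulk RNA, fewer cells that express a gene and less RNA per cell cannot be told apart.

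Among the 10 genes, ANXA2, ANXA1 and S100A10 had the highest levels. Levels between genes are given in TPM, which divides by transcript length, as the mean over the 12 EtOH libraries ± SD. ANXA2 stood at 6047 ± 626 TPM, ANXA1 at 2301 ± 101 TPM and S100A10 at 677 ± 69.6 TPM. HPGD followed with 210 ± 23.9 TPM. PTGES, at 51.2 ± 7.54 TPM, and PLA2G4A, at 49.1 ± 6.88 TPM, were neighbours in the order whose values overlapped. PTGS2 had 31.6 ± 4.24 TPM and overlapped with PLA2G4A at its upper end, and with PTGES2, at 16.9 ± 2.84 TPM, at its lower end. PTGS1, at 0.715 ± 0.300 TPM, and PTGER4, at 0.564 ± 0.270 TPM, came last and overlapped. With dex the order changed in places. The mean of PTGS2, 11.9 ± 3.82 TPM over 12 libraries, lay below that of PTGES2, 16.8 ± 2.38 TPM, although their ranges overlapped. PTGER4 reached 4.07 ± 0.836 TPM, and its lowest dex library, at 2.70 TPM, lay above the highest dex library of PTGS1, at 0.900 TPM.

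**Figure D1:**
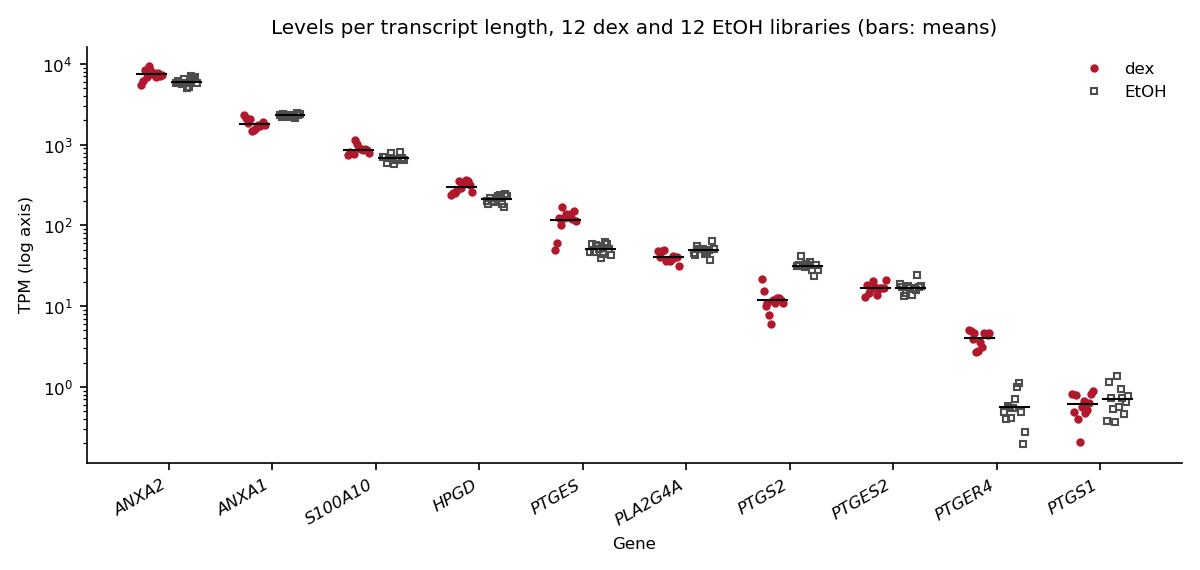
Level of each gene in TPM (log axis), with 1 point for each of 12 dex libraries (filled red circles) and 12 EtOH libraries (open squares); horizontal bars are means over the libraries of a treatment. The genes span from 6047 TPM for ANXA2 to 0.564 TPM for PTGER4 in EtOH means, and the ranges of dex and EtOH libraries do not overlap for PTGER4 and PTGS2.

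Dex and EtOH were compared at each time point by edgeR's quasi-likelihood F-test with Benjamini-Hochberg adjustment over 19897 tested rows, and an adjusted p of at most 0.1 counted as a call. At 1 h, 2 of the 10 genes were called, where 0.824% of all rows were called: PTGER4 up (0.488% of rows) and PTGS2 down (0.337%). At 3 h, 6 were called, against 12.9% of all rows, 5 of them up (7.85%) and 1 down (5.02%). At 5 h, 8 were called, against 23.1% of all rows, 5 up (11.4%) and 3 down (11.7%). At 7 h it was again 8, against 25.8%, 5 up (13.4%) and 3 down (12.4%). The number then shrank to 5 at 9 h, against 18.1%, 3 up (9.31%) and 2 down (8.78%). At 11 h it was 4, against 8.68%, 2 up (5.39%) and 2 down (3.29%), and it was 8 without dex replicate 1 (29.4% of all rows called) and 7 without dex replicate 2 (16.8%). Of the 10 genes 8 were called at 1 or more time points (41.4% of all rows), 5 higher (21.3%) and 3 lower (21.3%). The median absolute log2 fold change of the 10 genes was 0.16 at 1 h, beside 0.15 over all rows. It was 0.37 beside 0.21 at 3 h, 0.65 beside 0.25 at 5 h and 0.58 beside 0.24 at 7 h. At 9 h it was 0.32 beside 0.26, and at 11 h 0.36 beside 0.23. Dex and EtOH libraries did not overlap in 4 of the 10 genes at 1 h (34.8% of all rows), 9 at 3 h (50.6%), 8 at 5 h (54.4%), 8 at 7 h (57.0%), 7 at 9 h (53.9%) and 8 at 11 h (45.1%).

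**Figure D2:**
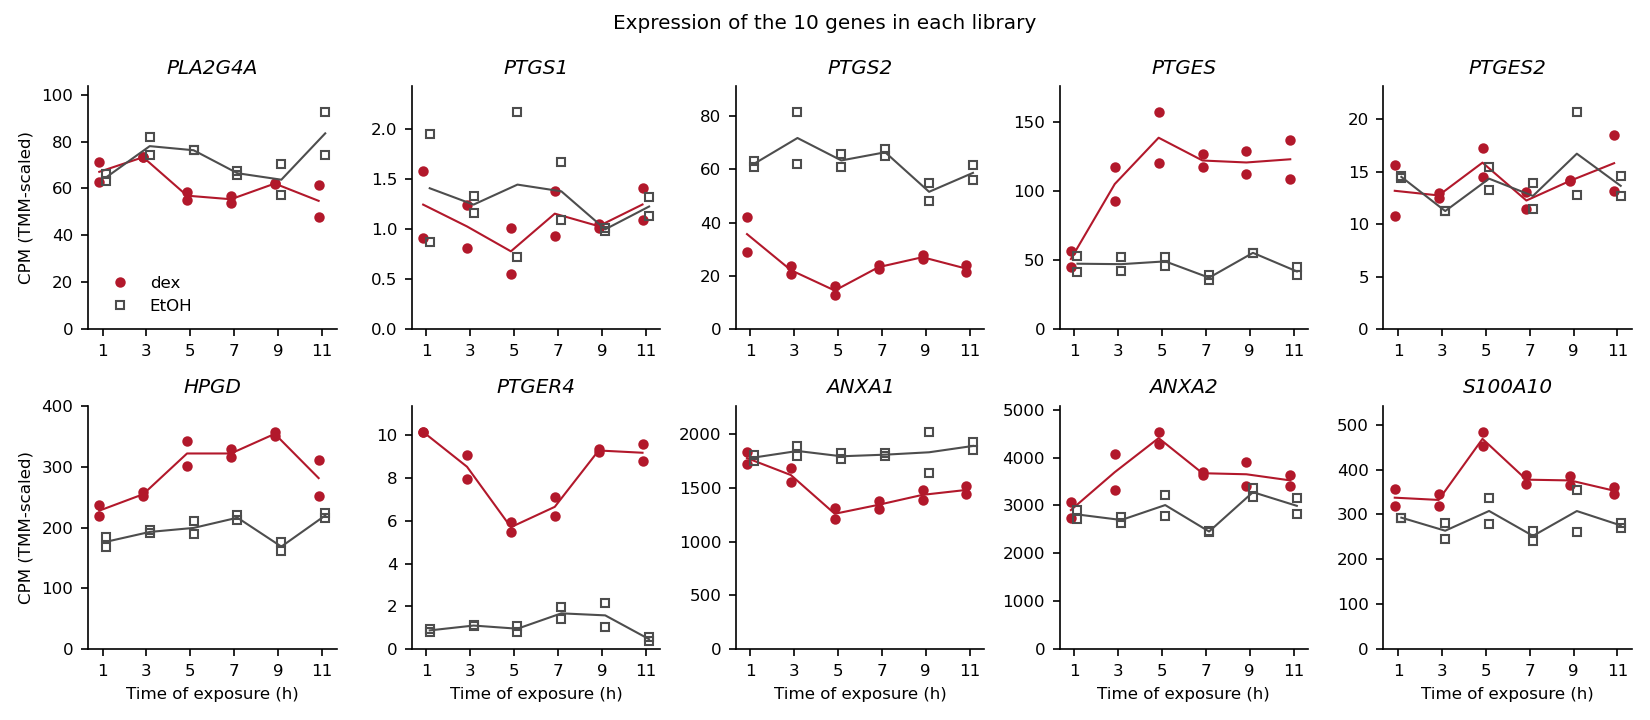
CPM (scaled by TMM) of the 10 genes against time of exposure in hours, with 1 point per library, 2 dex (filled red circles) and 2 EtOH (open squares) at each time, and lines through the group means. PTGS2 lies below EtOH and PTGER4 above EtOH at all 6 time points, whereas PTGES leaves the EtOH level between 1 and 3 h.

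PLA2G4A (ENSG00000116711, GRCh38 chr1:186828953-186988981, plus strand) encodes cytosolic phospholipase A2 alpha, the enzyme best known for releasing arachidonic acid. Its level dipped with dex at 5 h, where the dex libraries had 55.2 and 58.7 CPM and the EtOH libraries 76.3 and 76.2 CPM. The log2 fold change of -0.42 ± 0.11 (SE) passed the test (adjusted p = 0.0042). At 11 h the values were 61.4 and 48.0 CPM with dex and 92.6 and 74.4 CPM with EtOH, a log2 fold change of -0.61 ± 0.17 (adjusted p = 0.0463). This call was lost without EtOH replicate 1, the highest of the 4 libraries (log2 fold change -0.44, adjusted p = 0.686). At 7 h the decrease was smaller, -0.27 ± 0.09 (adjusted p = 0.0398), and it was lost without either dex replicate (adjusted p = 0.323 and 0.145), with DESeq2 (adjusted p = 0.203) and in one fit over 24 libraries (adjusted p = 0.176). At 1, 3 and 9 h PLA2G4A was not called, with log2 fold changes of 0.06, -0.09 and -0.04.

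PTGS2 (ENSG00000073756, GRCh38 chr1:186671791-186680427, minus strand), the inducible cyclooxygenase COX-2, was lower with dex in every library at every time point. At 1 h the dex libraries had 42.3 and 29.1 CPM and the EtOH libraries 63.0 and 60.9 CPM, and the log2 fold change was -0.78 ± 0.15 (SE, adjusted p = 0.013). At 3 h the values were 20.7 and 23.7 CPM against 81.5 and 62.0 CPM. PTGS2 reached its lowest level at 5 h, with 16.1 and 13 CPM in dex and 60.9 and 65.7 CPM in EtOH, a 4.36-fold lower level (log2 fold change -2.12 ± 0.14, adjusted p = 6.69e-17). Later dex values were less low. At 7 h dex libraries had 24 and 22.6 CPM, and at 9 h 27.9 and 26.2 CPM, while EtOH libraries at 9 h had 54.9 and 48.2 CPM (log2 fold change -0.94 ± 0.13, adjusted p = 0.000207). At 11 h the 4 libraries held 24.1 and 21.4 CPM with dex and 61.5 and 55.9 CPM with EtOH, and PTGS2 was 2.58-fold lower (adjusted p = 8.4e-05). Across the table, 32 rows (0.161%) were called lower at all 6 time points, and PTGS2 was one of them. Each of its 6 calls was also made under all 12 alternative settings tried, with log2 fold changes at 5 h from -2.29 to -1.98. Both PTGS2 transcripts were called lower from 3 to 11 h, and 1 of them at 1 h. Transcripts of the same gene can share reads, so the 2 are not separate measurements. In the same fits, the most counted transcripts of 19076 rows were called in 0.734%, 9.5%, 18.4%, 21.0%, 13.4% and 7.01% at 1 to 11 h.

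The PTGS2 message is shown because its 3′ end is a textbook case of an mRNA rich in AU elements, the ATTTA motifs through which unstable messages are known to be degraded. The first 30 bases after the stop codon of ENST00000367468.9 (GRCh38, chr1:186674323-186674352, minus strand, 3′ UTR) hold 3 overlapping ATTTA motifs, in capitals:

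PTGS2 3′ UTR, bases 1 to 30: aagtctaatgatcatATTTATTTATTTAta

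The whole 3′ UTR of 2562 bases has 22 ATTTA motifs, and 2.20% of 16389 most-counted coding transcripts with a 3′ UTR of at least 100 bases have as many. That is 8.59 per 1 kb, and 1.79% are as dense. PLA2G4A, which was lower with dex at 3 time points, has 4 in 473 bases, or 8.46 per 1 kb, and 34.6% of transcripts have as many and 1.90% are as dense. PTGER4, which was higher, has 9 in 1357 bases, or 6.63 per 1 kb, and 14.6% have as many and 4.44% are as dense. HPGD has 5 (28.9%), PTGS1 3 (42.2%), ANXA2 2 (53.4%) and PTGES 1 (70.1%). ANXA1, S100A10 and PTGES2 have none in theirs.

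Promoters are shown for the genes with the largest log2 fold changes in either direction, PTGS2, PTGES and PTGER4, and for ANXA1. These are the 250 bases before the RefSeq start (GRCh38.p14), 5′ to 3′ on the gene's strand, with matches to the motifs searched in capitals. PTGS2 lies at chr1:186680424-186680673 (minus), PTGES at chr9:129753043-129753292 (minus), PTGER4 at chr5:40679665-40679914 (plus) and ANXA1 at chr9:73151615-73151864 (plus):

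PTGS2: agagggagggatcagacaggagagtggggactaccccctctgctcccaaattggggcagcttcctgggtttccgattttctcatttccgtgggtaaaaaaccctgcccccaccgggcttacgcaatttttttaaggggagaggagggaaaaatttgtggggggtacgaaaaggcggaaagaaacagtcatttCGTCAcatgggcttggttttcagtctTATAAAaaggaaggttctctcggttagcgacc
PTGES: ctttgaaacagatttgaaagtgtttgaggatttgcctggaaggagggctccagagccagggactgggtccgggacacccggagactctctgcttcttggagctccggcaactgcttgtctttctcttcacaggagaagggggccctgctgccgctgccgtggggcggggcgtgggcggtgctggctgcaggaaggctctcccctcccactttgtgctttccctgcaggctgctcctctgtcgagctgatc
PTGER4: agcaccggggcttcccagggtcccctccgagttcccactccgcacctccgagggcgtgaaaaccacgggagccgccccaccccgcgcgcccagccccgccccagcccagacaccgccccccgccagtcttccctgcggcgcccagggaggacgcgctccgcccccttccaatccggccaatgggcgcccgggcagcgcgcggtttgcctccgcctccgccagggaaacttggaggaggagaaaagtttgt
ANXA1: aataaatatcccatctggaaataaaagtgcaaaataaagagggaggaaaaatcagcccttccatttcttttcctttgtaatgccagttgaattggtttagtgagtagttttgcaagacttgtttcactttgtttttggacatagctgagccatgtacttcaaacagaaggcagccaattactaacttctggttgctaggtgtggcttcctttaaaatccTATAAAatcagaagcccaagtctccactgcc

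Motifs were searched on both strands in this window. PTGS2 holds the shorter form TGACG of the cyclic AMP response element (read on the opposite strand as CGTCA, 58 to 54 bases before the start) and a TATA box (TATAAA, 32 to 27 bases before the start). Of 35116 RefSeq promoters, 21.2% hold TGACG and 10.7% hold TATAAA. ANXA1 has a TATA box 31 to 26 bases before its start. ANXA2 has TATAAA 31 to 26 bases before its start and an AP-1 motif (TGANTCA, held by 6.57% of promoters), and 1 of 2 HPGD promoters has TGACG. In 1 of 2 PTGS1 promoters the TATAAA match lies on the opposite strand (TTTATA), 208 to 203 bases before the start. The hexamer AGAACA bound by 1 GC receptor molecule (12.4% of promoters), the full element in which it faces its reverse complement across 3 bases (0.00285%), and the full element TGACGTCA of cyclic AMP, which contains TGACG (1.65%), were in no window of the 10 genes. These are letter matches in a short window, not sites of binding.

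PTGS1 (ENSG00000095303, GRCh38 chr9:122370530-122395703, plus strand), the constitutive cyclooxygenase COX-1, was barely detected, with 5 to 16 counts per dex library and 7 to 27 per EtOH library. It was not called at any time point, and its log2 fold changes ran from -0.94 ± 0.53 (SE) at 5 h to 0.05 ± 0.46 at 9 h. The 2 EtOH libraries at 5 h themselves differed, at 0.719 and 2.17 CPM. Under the alternatives tried, the 5 h value ran from -1.47, without EtOH replicate 1, to 0.11, so its sign was not stable. The only call of PTGS1 under these alternatives was at 5 h without EtOH replicate 1, and it rested on EtOH replicate 2.

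PTGES (ENSG00000148344, GRCh38 chr9:129738331-129753047, minus strand) encodes microsomal prostaglandin E synthase-1, which makes prostaglandin E2 and is often induced together with COX-2. Here it rose from 3 h on, at times when PTGS2 fell. At 1 h its values overlapped, 44.9 and 57.0 CPM with dex and 41.7 and 53.3 CPM with EtOH. At 3 h it stood at 117.5 and 93.0 CPM with dex and 42.0 and 52.3 CPM with EtOH (log2 fold change 1.15 ± 0.13, SE, adjusted p = 1.35e-07). The dex libraries then remained on a plateau, with 157.4 and 120.2 CPM at 5 h and 137.4 and 109.0 CPM at 11 h, against 52.3 and 46.1 CPM and 44.8 and 39.0 CPM with EtOH. The ratio was largest at 7 h, where 127.0 and 117.6 CPM with dex faced 35.5 and 39.3 CPM with EtOH, a 3.28-fold increase (log2 fold change 1.71 ± 0.09, adjusted p = 1.17e-16). PTGES was called up at 3, 5, 7, 9 and 11 h, and under all 12 alternatives at each of these. PTGES2 (ENSG00000148334, GRCh38 chr9:128120693-128128462, minus strand), the second synthase of the same reaction, was not called at any time point. Its group means ran from 11.2 to 16.7 CPM, and its log2 fold changes from -0.23 ± 0.21 (9 h) to 0.21 ± 0.22 (11 h). Single libraries decided these last values. Without EtOH replicate 1, PTGES2 was called lower at 9 h (-0.55, adjusted p = 0.00752), and without dex replicate 1 it was called higher at 11 h (0.43, adjusted p = 0.0615).

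HPGD (ENSG00000164120, GRCh38 chr4:174490177-174523154, minus strand) encodes 15-hydroxyprostaglandin dehydrogenase, which inactivates prostaglandin E2. Every dex library lay above every EtOH library of the same time point. At 1 h it had 218.5 and 237.7 CPM with dex and 184.5 and 169.0 CPM with EtOH, which did not pass the test (log2 fold change 0.37 ± 0.11, SE, adjusted p = 0.239), although it did without either dex replicate (adjusted p = 0.00417 and 0.085). It rose at 3, 5 and 7 h, by 0.40 ± 0.09, 0.69 ± 0.10 and 0.57 ± 0.07 on the log2 scale (adjusted p = 0.00348, 8.39e-07 and 1.34e-07). The largest ratio came at 9 h, when dex libraries had 357.9 and 351.5 CPM and EtOH libraries 176.7 and 161.1 CPM, a 2.10-fold increase (log2 fold change 1.07 ± 0.11, adjusted p = 6.71e-06). At 11 h the dex libraries spread to 311.9 and 251.5 CPM against 223.8 and 216.5 CPM, and HPGD was not called (log2 fold change 0.36 ± 0.14, adjusted p = 0.207). Under the alternatives tried, its 11 h log2 fold change ran from 0.19 to 0.50, the highest without dex replicate 2, the lower one. HPGD was called in that fit and in one fit over 24 libraries (adjusted p = 0.0154). Of 11 HPGD transcripts, 2 were called up at 3 h, 10 at 5 h, 8 at 7 h, 9 at 9 h and none at 1 or 11 h. These transcripts share sequence and reads, so they are not separate measurements. Over all rows, the most counted transcript was called in 9.5% at 3 h, 18.4% at 5 h, 21.0% at 7 h and 13.4% at 9 h.

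PTGER4 (ENSG00000171522, GRCh38 chr5:40679498-40693735, plus strand), the prostaglandin E2 receptor EP4, showed the largest relative change of the 10 genes. EtOH libraries held only 3 to 24 counts, dex libraries 47 to 123. At 1 h the dex libraries had 10.2 and 10.2 CPM and the EtOH libraries 0.956 and 0.792 CPM, an 11.6-fold increase (log2 fold change 3.53 ± 0.29, SE, adjusted p = 2.58e-07). The dex level then fell back and returned. It was 5.46 and 5.94 CPM at 5 h, 7.09 and 6.21 CPM at 7 h, and 8.78 and 9.58 CPM at 11 h. EtOH libraries had 0.822 and 1.08 CPM at 5 h, 1.38 and 1.96 CPM at 7 h, and 0.378 and 0.548 CPM at 11 h. The log2 fold change was accordingly lowest at 7 h (1.99 ± 0.28, adjusted p = 8.14e-07) and highest at 11 h (4.26 ± 0.37, adjusted p = 6.61e-06), where EtOH counts were at their lowest. PTGER4 was called up at all 6 time points, as were 73 rows of the table (0.367%), and under all 11 alternatives that could test it. The filter asked for 0.989 CPM or more in at least 2 libraries, and 7 of 12 EtOH libraries reached that value beside 12 of 12 dex libraries. With the stricter minimum of 10 counts in every library, PTGER4 and PTGS1 were not tested.

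ANXA1 (ENSG00000135046, GRCh38 chr9:73151757-73170393, plus strand) fell at 5 and 7 h, and at 9 h by a call that several alternatives did not make. At 1 h the groups overlapped, with 1829 and 1724 CPM with dex and 1810 and 1753 CPM with EtOH (log2 fold change 0.00 ± 0.10, SE). At 5 h the dex libraries had 1209 and 1309 CPM and the EtOH libraries 1822 and 1766 CPM. That was 1.42-fold lower (log2 fold change -0.51 ± 0.10, adjusted p = 0.000129). At 7 h the values were 1304 and 1381 CPM against 1824 and 1793 CPM (log2 fold change -0.43 ± 0.07, adjusted p = 1.32e-05). At 9 and 11 h the log2 fold change was -0.35 at both times, with SEs of 0.12 and 0.13. The 9 h value was called (adjusted p = 0.076) and the 11 h value was not (adjusted p = 0.173). The 9 h call was lost without dex replicate 1 (log2 fold change -0.31), dex replicate 2 (-0.40) or EtOH replicate 2 (-0.19). It was also lost with DESeq2 (adjusted p = 0.146), with the most counted transcript (adjusted p = 0.151) and at a threshold of 0.05. The 11 h value was called without dex replicate 1 (0.00834) or 2 (0.0671) and in one fit over 24 libraries (0.0091). EtOH means stayed between 1781 and 1890 CPM. Dex libraries were below EtOH libraries at all times but 1 h, and all 4 ANXA1 transcripts were called lower at 5 and 7 h, and 1 of them at 9 h. The 4 can share reads and are not separate measurements. Over all rows, the most counted transcript was called in 18.4% at 5 h, 21.0% at 7 h and 13.4% at 9 h.

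ANXA2 (ENSG00000182718, GRCh38 chr15:60347134-60402883, minus strand) and S100A10 (ENSG00000197747, GRCh38 chr1:151982915-151994390, minus strand) encode the partners of the annexin A2 heterotetramer, in which an S100A10 dimer joins annexin A2 molecules and which serves as a plasminogen receptor on the cell surface. Both rose at 3, 5 and 7 h, whereas ANXA1 fell at 5 and 7 h and was not called at 3 h (log2 fold change -0.19). ANXA2 had 4538 and 4278 CPM with dex and 3228 and 2789 CPM with EtOH at 5 h, and 3639 and 3710 CPM against 2447 and 2465 CPM at 7 h. Its log2 fold changes were 0.45 ± 0.10 at 3 h, 0.55 ± 0.11 at 5 h and 0.58 ± 0.07 at 7 h (SE, adjusted p = 0.00206, 6.44e-05 and 5.14e-08). S100A10 had 483.9 and 452.9 CPM against 337.3 and 278.1 CPM at 5 h, and 388.2 and 366.8 CPM against 240.6 and 263.8 CPM at 7 h. Its log2 fold changes were 0.33 ± 0.10, 0.61 ± 0.10 and 0.58 ± 0.07 at the same 3 times (adjusted p = 0.0227, 1.24e-05 and 1.29e-07). The 3 h calls were the least secure. Both were lost without dex replicate 1 (adjusted p = 0.145 for ANXA2 and 0.204 for S100A10), and that of S100A10 also without EtOH replicate 1 (adjusted p = 0.406).

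At 9 and 11 h neither gene was called, with log2 fold changes of 0.16 and 0.24 for ANXA2 and 0.29 and 0.36 for S100A10. Without EtOH replicate 2, S100A10 was called at 9 h (log2 fold change 0.53, adjusted p = 1.96e-07), and without either dex replicate at 11 h (adjusted p = 0.0109 and 0.00264). It was also called in one fit over 24 libraries at 9 h (adjusted p = 0.0883) and 11 h (0.0402), and without the filter at 9 h (0.0941). ANXA2 was called at 11 h without dex replicate 1 (adjusted p = 0.0847). The ANXA2 sum covers 30 transcript rows, of which 22 were called higher at 3 h, 28 at 5 h, 23 at 7 h, 6 at 9 h and none at 1 or 11 h. Over all rows, the most counted transcript was called in 9.5% at 3 h, 18.4% at 5 h, 21.0% at 7 h and 13.4% at 9 h. The 30 can share reads and are not separate measurements. At 3 h, 7 of the 30 had negative fold changes, none of them called. The 6 called at 9 h stand beside a sum that was not called then. Reads from its processed pseudogenes, which were not analysed here, could be counted in it. Dex libraries of S100A10 lay above EtOH libraries at all 6 time points.

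**Figure D3:**
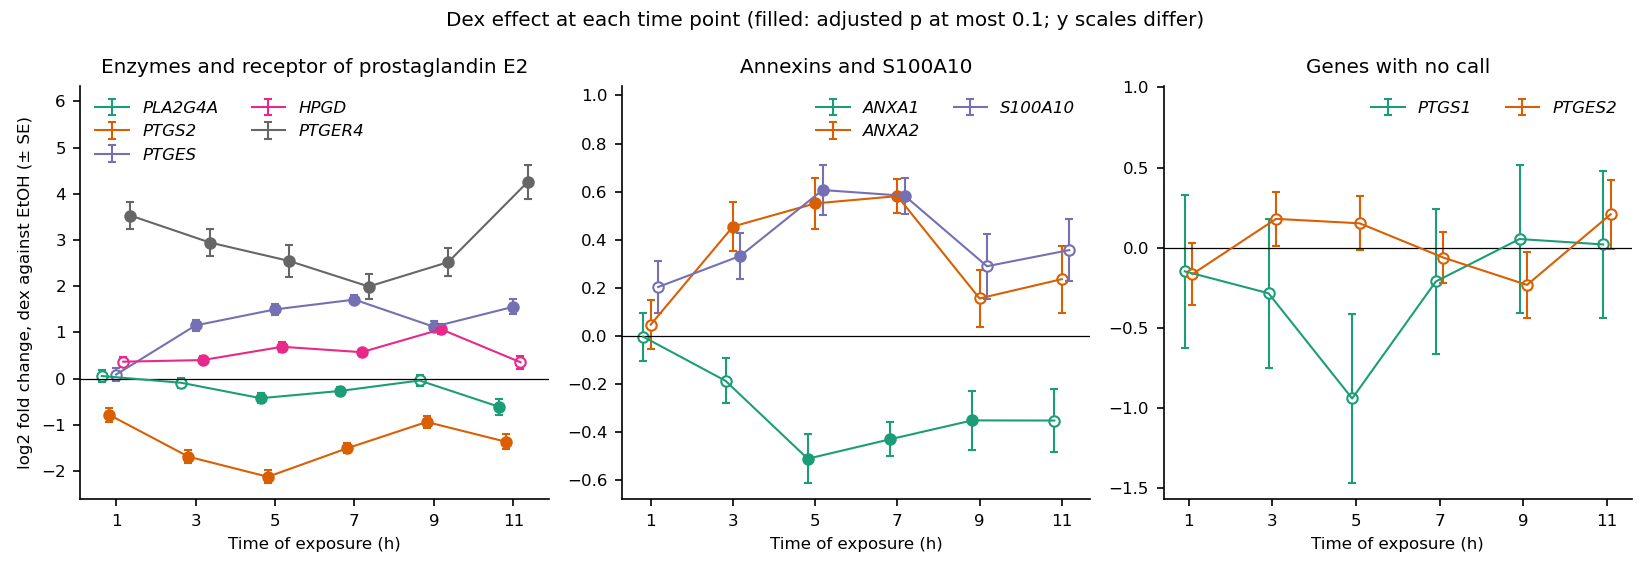
Log2 fold change of dex against EtOH (± SE, from 2 against 2 libraries) at each time of exposure in hours, in panels with different vertical scales; filled points have an adjusted p of at most 0.1 and points of different genes are offset sideways. PTGER4 and PTGS2 are filled at all 6 times, ANXA2 and S100A10 peak at 5 and 7 h where ANXA1 is at or near its lowest, and PTGS1 and PTGES2 have no filled point.

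Whether the dex effect differed between time points was asked with one fit over 24 libraries (edgeR's quasi-likelihood F-test of the interaction, with Benjamini-Hochberg adjustment over 19897 rows). It did for 7 of the 10 genes, where 13.8% of all rows were called. The 7 were PTGES (adjusted p = 0.000205), PTGS2 (0.000365), HPGD (0.00322), PTGER4 (0.0172), ANXA2 (0.0335), PLA2G4A (0.0526) and ANXA1 (0.0702). S100A10 (adjusted p = 0.326), PTGES2 (0.710) and PTGS1 (0.875) were not called, which does not show that their effects were constant. Without EtOH replicate 2 of 1 h, 4 genes were called (9.47% of all rows).

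Contrasts between single time points placed these changes. The effect on PTGES grew by 1.06 ± 0.23 (SE) on the log2 scale between 1 and 3 h (adjusted p = 0.00745), a step called in 4.39% of all rows. The effect on PTGS2 deepened by -0.91 ± 0.21 over the same interval (adjusted p = 0.00984) and by -1.34 ± 0.21 between 1 and 5 h (adjusted p = 6.22e-05, 12.3% of all rows). ANXA1 and ANXA2 moved apart between 1 and 5 h, by -0.51 ± 0.13 and 0.50 ± 0.14 (adjusted p = 0.0106 and 0.0221). The effect on PTGER4 at 7 h was smaller than at 1 h by -1.54 ± 0.42 (adjusted p = 0.0179, 11.1% of all rows). HPGD reached its peak at 9 h, 0.70 ± 0.14 above its 1 h effect (adjusted p = 0.0016, 7.62% of all rows), and the effect at 11 h was lower than at 9 h by -0.71 ± 0.14 (adjusted p = 0.0279), a step called in 0.533% of all rows. The effect on PLA2G4A at 11 h lay below that at 1 h by -0.67 ± 0.17 (adjusted p = 0.0174, 7.6% of all rows).

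The vehicle cells themselves were compared over time in the 12 EtOH libraries. HPGD was the only gene of the 10 called (adjusted p = 0.0741, with 3.16% of all rows called), and its EtOH mean moved between 168.9 CPM at 9 h and 220.1 CPM at 11 h. The 9 h peak of the HPGD effect therefore combined the highest dex mean, 354.7 CPM, with the lowest EtOH mean. An unadjusted p of at most 0.05 was found for 6 of the 10 genes, beside 15.6% of all rows, and 5 of these 6 were not called. DESeq2 called 2 of the 10, beside 3.43% of all rows. No gene was called when replicate 1 of 3, 5, 7 or 11 h, or replicate 2 of 7 or 11 h, was left out (0.116% to 2.24% of all rows), whereas 7 were without replicate 1 of 9 h (11.4%) and 3 without replicate 2 of 3 h (3.74%).

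Other genes of the same pathways, from lists written down by name, extended the picture. Among 10 other prostanoid synthases and reductases, 7 were tested and none was called up, while 3 were called down at 5 h (11.7% of all rows) and 4 at 7 h (12.4%), and the list median at 5 h was -0.25 on the log2 scale beside 0.0064 over all rows. AKR1C3, which makes prostaglandin F2 alpha, fell from 1905 to 1481 CPM at 7 h (log2 fold change -0.36 ± 0.07, SE, adjusted p = 0.000153). AKR1B1, an aldo-keto reductase with the same activity, fell from 1971 to 1437 CPM at 5 h (-0.46 ± 0.10, adjusted p = 0.000595). PTGR1, which reduces inactivated prostaglandins further, fell by 0.30 at 7 h and by 0.39 at 9 h on the log2 scale (adjusted p = 0.0026 and 0.025). AKR1C3 has close relatives whose reads may be split between them.

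Of 10 prostanoid receptors and transporters other than PTGER4, 3 were tested, with a median log2 fold change of 0.16 at 5 h. PTGER2, the second receptor for prostaglandin E2 that couples to cyclic AMP, rose at 3, 5, 7, 9 and 11 h and stood at 4.07 CPM with dex and 1.23 CPM with EtOH at 3 h (log2 fold change 1.76 ± 0.35, adjusted p = 0.000541). ABCC4, an exporter of prostaglandins, rose at 3, 7, 9 and 11 h, most at 9 h, from 78.7 to 126.5 CPM (0.68 ± 0.12, adjusted p = 0.00164). PTGER1 and PTGER3, the remaining receptors for prostaglandin E2, had 7 and 9 counts in all 24 libraries and were not tested.

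Among 12 lipoxygenase and leukotriene genes, 5 were tested. ALOX5AP, the activating protein of 5-lipoxygenase, had the largest log2 fold change of the pathway lists, with S100P next to it. It rose at 3 to 11 h and stood at 20.2 ± 0.585 CPM with dex and 1.87 ± 0.265 CPM with EtOH at 7 h (SD, n = 2; log2 fold change 3.42 ± 0.21, SE, adjusted p = 2.5e-15). The lipoxygenase it serves, ALOX5, had 46 counts in 24 libraries and was not tested. LTA4H, the most abundant gene of the list, was not called, at 200.3 CPM with dex and 224.3 CPM with EtOH at 5 h. Of 15 phospholipase A2 genes other than PLA2G4A, 5 were tested and 2 were called, both up and at 7 h only, where 13.4% of all rows rose. Over all time points 41.4% of all rows were called at least once, so 2 of 5 is near the background. PLA2G12A, the most abundant of these, was not called, with 27.1 CPM against 25.3 CPM at 5 h.

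Of 11 other annexins, 9 were tested, and at 5 h 2 rose (11.4% of all rows) and 2 fell (11.7%), with a median log2 fold change of 0.08. ANXA5, widely used as a probe for phosphatidylserine, rose at 5 h from 263.9 to 366.7 CPM (0.47 ± 0.10, adjusted p = 0.000332). ANXA6 rose at 5, 7 and 11 h, most at 7 h (0.62 ± 0.10, adjusted p = 2.04e-05). ANXA10 fell at 3, 5 and 7 h, from 4.95 to 1.77 CPM at 5 h (-1.50 ± 0.32, adjusted p = 0.000332). Of 16 other S100 genes, 8 were tested. Of these, 4 rose at 3 h (7.85% of all rows), 4 at 5 h (11.4%) and 4 at 7 h (13.4%), 3 of them at all of these times, with none lower, and the list median at 5 h was 0.42. S100P rose from 8.53 to 63.6 CPM at 5 h (2.91 ± 0.16, adjusted p = 3.23e-18). S100A3 rose from 12 to 21.4 CPM (0.85 ± 0.22, adjusted p = 0.0132) and S100A6 from 625.0 to 806.7 CPM (0.37 ± 0.13, adjusted p = 0.0592) at the same time. The formyl peptide receptors FPR1, FPR2 and FPR3, through which annexin A1 acts on cells, had 30, 17 and 0 counts in 24 libraries and none was tested.

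**Figure D4:**
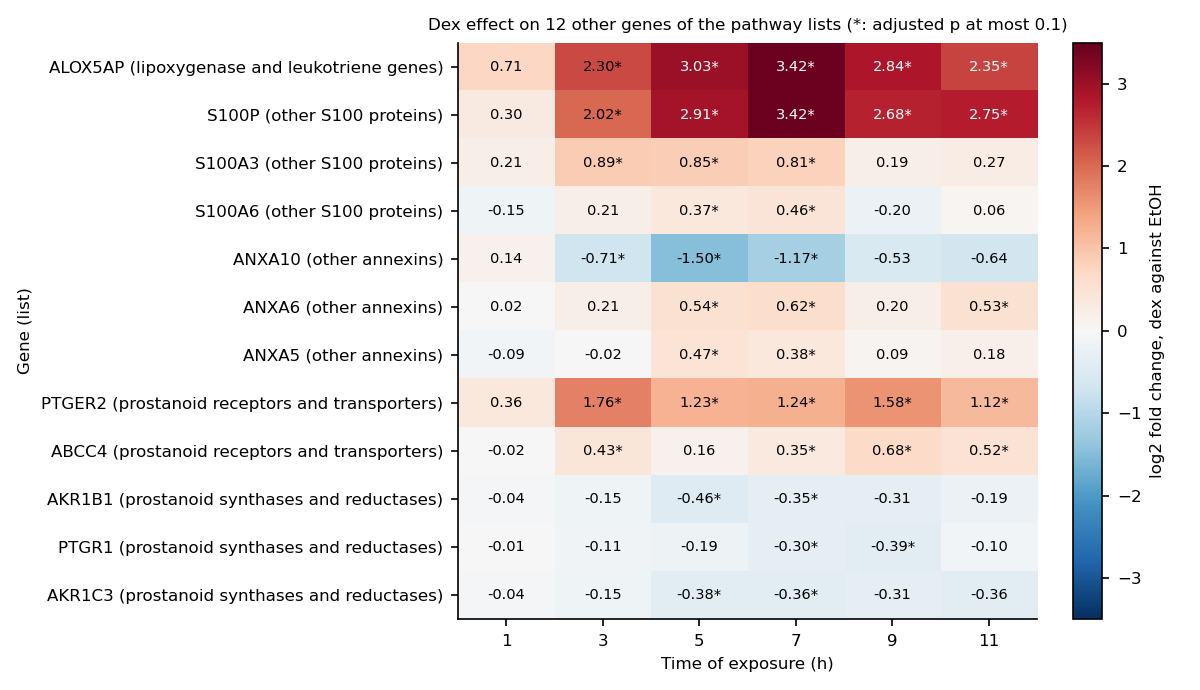
Log2 fold change of dex against EtOH at 6 times of exposure (columns, hours) for the 12 genes of the pathway lists with the largest changes that were called at consecutive time points (rows), as colour from blue (lower with dex) to red (higher), with the value in each cell and an asterisk where the adjusted p was at most 0.1. No cell at 1 h is called; ALOX5AP and S100P reach 3.42 at 7 h, and the 3 reductases are called only downward.

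The genes whose profiles resembled those of PTGS2, ANXA1 and HPGD most were listed by Pearson's r of log2 CPM over 24 libraries, as a description. The libraries share treatments and times, so such values mix the dex effect with its time course. For PTGS2 the closest were ENC1 (0.949), IL11 (0.948), an interleukin of the IL-6 family, and LRP12 (0.947). For ANXA1 they were RFC5 (0.957), a subunit of the clamp loader of DNA replication, IGFBP3 (0.954), an IGF binding protein, and MATN2 (0.952). For HPGD they were IL6ST (0.970), the signal-transducing receptor subunit gp130, AKAP10 (0.951) and SRGN (0.948).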

How the data were processed

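The authors placed 50-base single-end reads on GENCODE 19 transcripts with Bowtie 0.12.9 and tallied them with samtools idxstats 1.3.1, so the deposited values are unnormalized counts per transcript. Use of strand in counting is not given in the sources used here. Transcripts with identical sequence (34 pairs) differed as random placement would give (median squared difference over sum 1.10, against 1).

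Of 119207 transcript rows, 110261 (94.1% of counts) matched a GENCODE 29 gene by identifier and were summed. The median library held 10109393.5 counts. With edgeR 4.0.16 in R 4.3.3, rows were filtered by filterByExpr, scaled by TMM and tested by robust quasi-likelihood F-tests (Benjamini-Hochberg, adjusted p at most 0.1). SE was |log2 fold change| over the square root of F. The p-values rest on the spread between 2 libraries per group, moderated towards the trend over all tested rows. In simulated counts, 200 of 19896 rows were changed for each comparison. At 5 h, 66% of 2-fold and 85% of 4-fold changes were recovered and 13.2% of 174 calls were false. For the interaction these values were 47%, 78% and 12.0% of 142. For EtOH over time they were 64%, 87% and 23.7% of 198. The 5 h test on the data called 4588 rows, so the simulated rates need not hold for it.

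Groups came from sample labels. The 10 genes and the lists were chosen with earlier results of these data known, and contrasts between single time points were added after planning. Other named genes were at most 12 of the lists, by largest log2 fold change among those called at 2 or more consecutive time points with both replicates on the same side, the most abundant of each list, and 3 closest profiles. ANXA8, ANXA8L1 and PECAM1 were not analysed here. Alternatives were DESeq2 1.42.0, its size factors in edgeR, other filters, a joint fit, a replicate block, a threshold of 0.05, the most counted transcript, and each library left out.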

Additional observations from a re-analysis of the deposited data

Results flagged for a closer look

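For 7 of the 10 genes the effect of dex differed between time points by the test of the interaction in edgeR (quasi-likelihood F-test, Benjamini-Hochberg adjustment), and each is given here with its adjusted p and the range of its log2 fold changes. PTGES (adjusted p = 0.000205) went from 0.09 at 1 h to 1.71 at 7 h. PTGS2 (adjusted p = 0.000365) went from -0.78 at 1 h to -2.12 at 5 h and stood at -0.94 at 9 h, with no call for the steps from 5 to 7 or 7 to 9 h. HPGD (adjusted p = 0.00322) ranged from 0.36 at 11 h to 1.07 at 9 h. PTGER4 (adjusted p = 0.0172) ranged from 1.99 at 7 h to 4.26 at 11 h, with 3 to 24 counts in EtOH libraries. ANXA2 (adjusted p = 0.0335) was at 0.05 at 1 h and 0.58 at 7 h. PLA2G4A (adjusted p = 0.0526) ranged from 0.06 at 1 h to -0.61 at 11 h. ANXA1 (adjusted p = 0.0702) was at 0.00 at 1 h and -0.51 at 5 h.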

How the results depend on the processing

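Of 708 single values of the 10 genes under alternative settings, 647 kept their direction and side of the threshold, 14 lost a call, 21 gained one, 26 uncalled values changed sign or had no adjusted p, and no called value reversed. At 1 h, the 2 calls became 1 with at least 10 counts in every library, since PTGER4 was then not tested. At 11 h, the 4 calls became 7 in one fit over 24 libraries (14.9% of all rows). Leaving out single libraries gave 2 to 3 calls at 1 h, 4 to 6 at 3 h, 8 to 9 at 5 h, 7 to 8 at 7 h, 4 to 6 at 9 h and 3 to 8 at 11 h (8 without dex replicate 1, 7 without dex replicate 2). The interaction was called for 7 genes, and for 4 to 8 with 1 library left out (4 without EtOH replicate 2 of 1 h). In EtOH over time, the single call became 0 at a threshold of 0.05 and 0 with the most counted transcript, 5 without the filter (6.21% of all rows) and 2 with DESeq2 (3.43%), and ranged from 0 to 7 with 1 library left out (7 without EtOH replicate 1 of 9 h, 3 without EtOH replicate 2 of 3 h), beside 6 genes at an unadjusted p of 0.05. Calls over all rows also moved: 164 at 1 h against 628 with the replicate block, 2559 at 3 h against 1324 with DESeq2, 4588 at 5 h against 2660, 5132 at 7 h against 2727 and 3599 at 9 h against 2032 with DESeq2, and 1727 at 11 h against 2971 in one fit. With 1 library left out these were 92 to 770, 1518 to 2993, 3405 to 3962, 2660 to 5870, 1328 to 6108 and 859 to 5845. The cause of these shifts was not tested.

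The published methods describe a paired vehicle control, and the main test used no pairing. Same-numbered dex and EtOH libraries deviated together with correlations of 0.14, -0.06, 0.03, -0.01, 0.10 and -0.02 at 1 to 11 h. With 2 replicates per group, such values cannot show whether replicate numbers mark pairs. With the replicate number as a block, 3, 6, 8, 8, 6 and 6 genes were called (3.16%, 11.3%, 23.7%, 25.8%, 26.5% and 11.0% of all rows), 7 for the interaction (14.9%) and 1 in EtOH over time (3.01%). The calls gained were HPGD at 1 h (adjusted p = 0.00208), S100A10 at 9 and 11 h (0.0174 and 0.0982) and ANXA1 at 11 h (0.0593). PTGS1 and PTGER4 had at most 27 and 24 counts in an EtOH library, and the part of sequencing depth in their results was not tested.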

Other observations

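Members of the pathway lists outside the rule for named genes were also called, and these were chosen after their values were seen (edgeR, adjusted p by Benjamini-Hochberg). The phospholipases PLA2G15 and PLAAT3 rose at 7 h, by 0.43 ± 0.16 and 0.70 ± 0.18 on the log2 scale (SE, adjusted p = 0.0549 and 0.00482). PTGES3, the cytosolic synthase that is also the co-chaperone p23, fell from 953.2 to 764.8 CPM at 5 h (adjusted p = 0.0217). LTB4R, a leukotriene B4 receptor, fell from 12.6 to 7.84 CPM at 7 h (adjusted p = 0.006). CBR1, a carbonyl reductase that acts on prostaglandin E2, fell from 44.9 to 33.8 CPM at 7 h (adjusted p = 0.00438). S100A16 rose at 3, 5 and 7 h, by 0.36, 0.27 and 0.36 on the log2 scale, and ANXA4 fell from 529.9 to 415.2 CPM at 5 h (adjusted p = 0.00948).

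Among list genes under the filter, 6 held at least 50 counts in 24 libraries. ALOX15B, a 15-lipoxygenase, held 70 counts in 10 of 12 dex libraries and 2 counts in 2 of 12 EtOH libraries. PLA2G10, a secreted phospholipase A2, held 70 counts in 12 dex libraries and 22 in 9 of 12 EtOH libraries. The others differed less or the other way: ALOX12B had 27 counts with dex and 45 with EtOH, PLA2G4C 48 and 56, PTGIS 54 and 47, and TBXA2R 101 and 83. None of the 6 was tested, and single libraries held at most 17 counts of ALOX15B and 11 of PLA2G10.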
